A study of Drosophila melanogaster with 26 samples.

Results

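The genes described here are those of chromosome 4 of Drosophila melanogaster, the small dot chromosome, in cultured cells treated with RNAi against the histone kinase JIL-1 or its partner JASPer. Members were all chromosome 4 genes of the release 6 annotation with more than 0 reads on the strand of the gene in every one of the 26 libraries, apart from genes for ribosomal proteins. Of 110 chromosome 4 genes in the tables, 71 had reads in all libraries. RpS3A was left out as a ribosomal protein gene, and 70 members remained of the 7909 genes with reads in all libraries. They were 61 protein-coding genes, 7 antisense RNAs, 1 other long noncoding RNA and the pseudogene CR43361, and they spanned positions 32478 to 1271759 of chromosome 4. The other 39 chromosome 4 genes lacked reads in at least 1 library.

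Chromosome 4 is known for a mixed chromatin state. It is rich in H3K9 methylation and in heterochromatin protein HP1a, yet many of its genes are transcribed, and the protein POF binds it along its length. On this chromosome H3K9 methylation depends largely on the methyltransferase Eggless. JIL-1 phosphorylates serine 10 of histone H3 in interphase, next to the lysine that carries this methylation, and loss of JIL-1 is known to let H3K9me2 spread into active chromatin in larval salivary glands.

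The samples were S2-DRSC cells, a male line, and Kc167 cells, a female line, all treated with double-stranded RNA in 2 rounds. Control RNAi gave 5 S2 and 4 Kc samples, jasper RNAi 4 and 4, and jil-1 RNAi 5 and 4. Sample titles carry batch numbers, with S2 cells in batches 1 to 3 and Kc cells in batches 1 and 2. S2 batch 3 held 1 control and 1 jil-1 RNAi sample. The labels do not tell which control RNA or which of several targeting RNAs a sample received, and each line is a single culture line. Nothing states that samples of a group came from separate cultures, so that p-values measure the spread between these samples.

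Between 2513223 and 17648358 reads per library lay on genes, of which 22575 to 175165 lay on the members. Levels are given in CPM, the reads on a gene per 1000000 reads on all genes after TMM scaling over the 26 libraries. Differences are log2 fold-changes with standard errors (SE) and adjusted p-values of edgeR's quasi-likelihood test over all genes tested, with a threshold of 0.05 and batch in the model. Where values of single samples are listed they follow the replicate numbers, which are 4, 5, 8, 9 and 11 for S2 control and jil-1 RNAi, 4, 5, 8 and 9 for S2 jasper RNAi, and 1 to 4 for Kc cells. In bulk RNA, fewer cells with a transcript and less transcript per cell cannot be told apart.

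The labels of line and treatment were checked first. The male-specific lncRNA:roX2 had 520 to 950 CPM in S2 libraries and 0.61 to 4.66 CPM in Kc libraries other than jasper RNAi replicate 4, which had 21.3 CPM. The related lncRNA:roX1 stood at 27.1 and 18.03 CPM in the S2 libraries of batch 3 and at no more than 5.92 CPM in other S2 libraries, and at 33.3 CPM in Kc jil-1 RNAi replicate 1 against no more than 3.02 CPM in other Kc libraries. Summed over the 3 male markers, levels were 568 to 1011 CPM in S2 and 8.06 to 49.1 CPM in Kc cells, and all 6 hemocyte markers had reads in every library. Hemocyte markers differed in level between the control cells of the lines. In S2 against Kc cells Hml was lower (log2 difference -6.04), and eater (2.69), NimC1 (2.42) and Pvr (0.56) were higher. For srp and Ppn this test was not passed. Some hemocyte markers also moved with RNAi, whereas srp and Pvr passed the test in no RNAi contrast. Upon jil-1 RNAi NimC1 (-0.87), Hml (-0.44) and eater (-0.35) were lower in S2 cells, and Hml (-0.83), eater (-1.34) and Ppn (-0.94) in Kc cells. Upon jasper RNAi NimC1 was lower (-0.26) and Ppn higher (0.49) in S2 cells, and Hml was lower (-0.52) in Kc cells, all past the threshold of edgeR's test. Their part in the results for the members was not tested. Reads opposite to the targeted genes, a mark of the added RNA, set the labelled RNAi libraries apart in both lines. They were at least 131 CPM on Jasper in S2 and 18.5 CPM in Kc cells after jasper RNAi, and at most 10.4 and 4.00 CPM elsewhere. On JIL-1 they were at least 109 and 59.3 CPM after jil-1 RNAi and at most 12.96 and 6.64 CPM elsewhere. On the gene's own strand the added RNA is counted too, with 59.0 to 1625 CPM of Jasper after jasper RNAi against 115.5 to 160.2 CPM in other S2 libraries, so that these counts cannot show by how much the targeted transcripts fell.

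The members were long and moderately expressed. Their median gene length was 9.26 kb, against 2.51 kb for genes of 2L, 2R, 3L and 3R with reads in all libraries, and 32 overlapped a gene on the opposite strand. Together they took 9623 ± 448 CPM in control S2 cells (SD, n = 5) and 8964 ± 467 CPM in control Kc cells (SD, n = 4). Per kb of exon, the median level of a member was 20.5 CPM in S2 and 22.1 CPM in Kc control cells. The same 3 genes led in both lines. ATPsynbeta, a subunit of mitochondrial ATP synthase, had 383 ± 28.8 CPM per kb in S2 (SD, n = 5) and 365 ± 49.6 in Kc cells (SD, n = 4). The translation initiation scaffold eIF4G1 had 173 ± 9.23 and 92.5 ± 7.66 CPM per kb, and the respiratory complex I subunit ND-49 had 107 ± 9.87 and 150 ± 18.2 CPM per kb. At the other end, 11 members in S2 and 14 in Kc control cells were under 1 CPM per kb, and 22 members had fewer than 10 reads in at least 1 library.

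S2 and Kc control cells were compared first, to describe where the lines differ before RNAi. Of the 70 members, 23 were lower and 29 higher in S2 cells, against 35.2% of all tested genes lower and 33.4% higher. The median log2 difference was 0.06 for members and 0.00 for genes of 2L, 2R, 3L and 3R. Line, culture and library preparation cannot be told apart in this comparison, which has no batch term. Of the 11 members in the prepared list of transcription and chromatin genes, 4 had lower levels in S2 than in Kc cells and 2 had higher levels. Sox102F, a Sox family factor, had 26.9, 27.2, 32.2, 29.9 and 16.04 CPM in S2 and 0.35, 0.22, 0.23 and 0.24 CPM in Kc cells, a log2 difference of 6.61 (SE 0.31, adjusted p = 4.22e-09). The low S2 value came from batch 3. The gene fuss, of the Ski/Sno family of corepressors, stood at 26.0 to 29.7 CPM in S2 and 0.11 to 0.88 CPM in Kc cells (log2 difference 5.58). In the opposite direction, ci, the transcription factor of Hedgehog signalling, had 0.24 to 1.77 CPM in S2 and 5.45 to 8.56 CPM in Kc cells (log2 difference -2.58). Pur-alpha, a nucleic acid binding protein gene, had 14.7 to 26.3 CPM in S2 and 68.9 to 89.8 CPM in Kc cells (log2 difference -1.80).

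Members with other roles also separated the lines. The TGF-beta ligand gene mav had 43.2, 40.3, 48.5, 50.2 and 52.2 CPM in S2 and 0.87, 1.26, 1.25 and 1.71 CPM in Kc cells (log2 difference 5.21, SE 0.16). The giant muscle protein gene bt, which encodes projectin, had 26.2 to 30.9 CPM in S2 and 0.68 to 1.59 CPM in Kc cells (log2 difference 4.73). The gene apolpp, for the precursor of the lipid carrier apolipophorin, had 20.2 to 44.7 CPM in S2 and 0.61 to 2.93 CPM in Kc cells (log2 difference 4.36). Higher in Kc were the DNA glycosylase gene Tdg (log2 difference -0.96), the semaphorin receptor gene PlexA (-0.83), the kinase gene Asator (-0.80) and the vesicle priming gene unc-13 (-0.61), none with overlapping groups. The antisense RNA asRNA:CR45126 was at 10.0 to 18.9 CPM in Kc and 1.11 to 2.42 CPM in S2 cells (log2 difference -3.19), and asRNA:CR44030 at 0.57 to 1.65 CPM in Kc and 11.1 to 14.97 CPM in S2 cells (log2 difference 3.56).

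**Figure D1:**
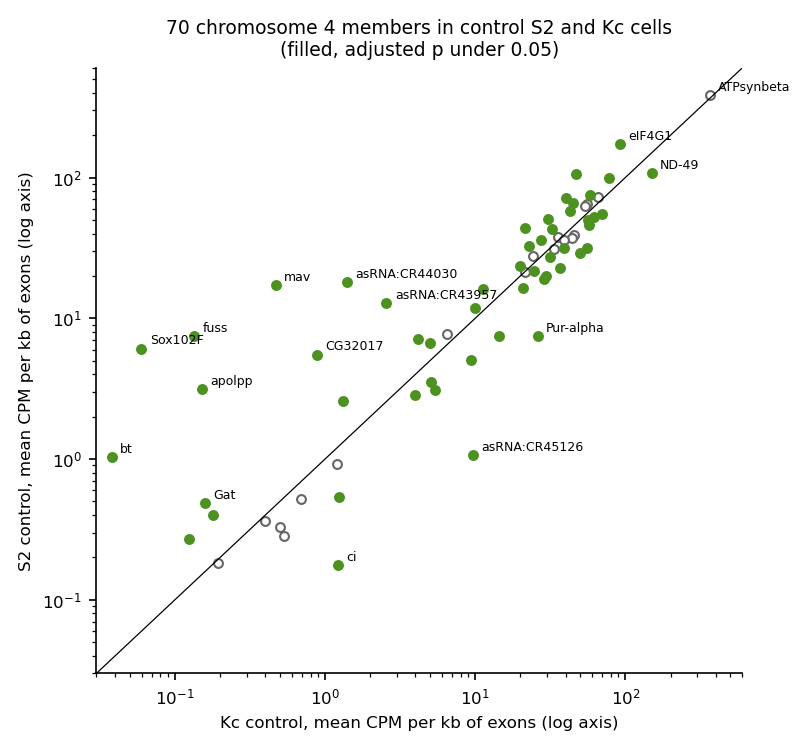
Mean level of each of the 70 members per kb of exon in control Kc cells (horizontal, n = 4) and control S2 cells (vertical, n = 5), both on log axes in CPM per kb, with the line of equal levels. Filled points differed at the adjusted threshold (23 lower and 29 higher in S2 cells). Sox102F, fuss, mav, apolpp and bt lie far above the line, and asRNA:CR45126, ci and Pur-alpha below it.

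Upon jil-1 RNAi, many chromosome 4 genes fell in S2 cells and none rose. Of the 70 members, 27 were lower, against 12.3% of all tested genes, and 0 were higher, against 9.12%. DESeq2 called 28 lower and 0 higher, and at an unadjusted p under 0.05 edgeR gave 36 lower and 1 higher. The log2 fold-change was negative for 61 members, with a median of -0.16, while genes of 2L, 2R, 3L and 3R had a median of 0.02. X-linked genes, of which 20.8% were called lower, had a median of -0.08. Most falls were small: the 27 called members lay between -1.57 and -0.14, with a median size of 0.31. In 21 of the 27 the value was lower in all 5 same-numbered pairs of samples, and in 11 the groups did not overlap. Of all 1038 tested genes called lower, 87.0% were lower in all 5 pairs and in 29.7% the groups did not overlap.

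The fall was uneven between pairs. The member median minus the median of 2L, 2R, 3L and 3R genes was -0.19 in the fit. In single pairs it was 0.03 and -0.14 in batch 1 (replicates 4 and 5), -0.44 and -0.31 in batch 2 (replicates 8 and 9) and -0.11 in batch 3 (replicate 11). The SD over the 5 pairs was 0.18, about as large as the difference itself, and pair 4 did not show the direction. Of the 70 members, 66 were lower in each pair of batch 2, 31 and 53 in the pairs of batch 1 and 49 in batch 3. The count of 27 lower members stood at 27 from batches 1 and 2 alone and went down to 16 without control replicate 8 or without jil-1 RNAi replicate 9. Without batch in the model it was 9. Reads opposite to genes of 2L, 2R, 3L and 3R, a measure of how strictly a library kept the strand, went from 5.16% in control to 2.39% in jil-1 RNAi in pair 8 and from 3.81% to 3.15% in pair 9. They were 3.99% and 4.08% in pair 4, 2.65% and 2.76% in pair 5 and 2.54% and 2.73% in pair 11. The part of this in the result was not tested.

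**Figure D2:**
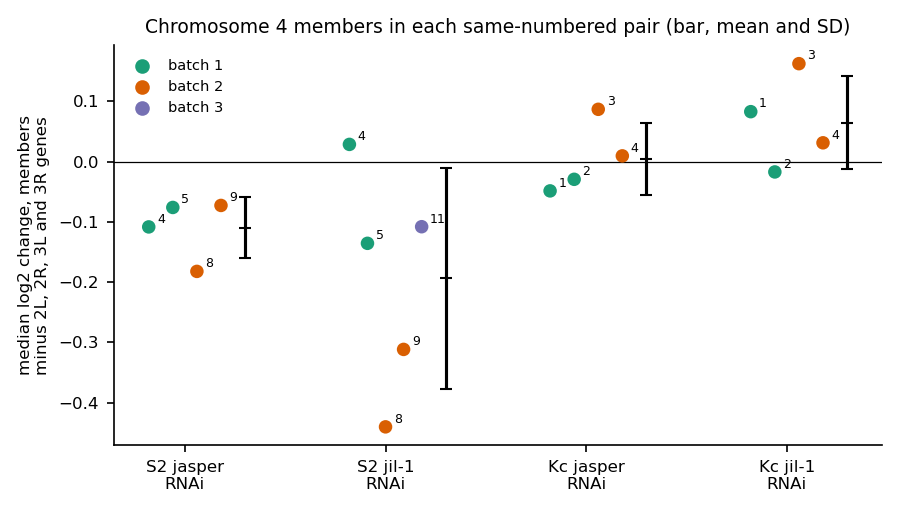
Median log2 change of the 70 members minus that of genes on 2L, 2R, 3L and 3R (vertical) in each same-numbered pair of RNAi and control samples, labelled with its replicate number and coloured by batch. Bars show the mean and SD over pairs. All 4 S2 jasper RNAi pairs and 4 of 5 S2 jil-1 RNAi pairs are below 0, with -0.44 and -0.31 in batch 2 of jil-1 RNAi, whereas Kc pairs lie between -0.05 and 0.16.

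Upon jasper RNAi in S2 cells, 12 members were lower, against 11.9% of all tested genes, and 0 were higher, against 8.45%. The 12 are 17.1% of the members. DESeq2 called 13 lower and 1 higher, and at an unadjusted p under 0.05 edgeR gave 20 lower and 4 higher. The member median was -0.07, against 0.03 for genes of 2L, 2R, 3L and 3R and -0.09 for the X. The difference of medians was -0.10, with an SD of 0.05 over 4 pairs, and it was -0.11, -0.08, -0.18 and -0.07 in pairs 4, 5, 8 and 9. All 12 called members were lower in all 4 pairs, and in 8 the groups did not overlap. Of all 1004 tested genes called lower, the shares were 93.6% and 54.5%. The count was 13 from batches 1 and 2 alone and 5 without batch in the model, and without control replicate 8 there were 6 lower and 3 higher. Both S2 contrasts share the control samples. Side by side, 10 members were called lower in both, 2 (CR43361 and Asator) in jasper RNAi only and 17 in jil-1 RNAi only. The same overlap was not counted over all tested genes, so that these counts do not set the members apart. Between the 2 RNAi treatments themselves, 2 members were lower after jasper than after jil-1 RNAi, against 3.58% of all tested genes, and 1 was higher, against 2.80%.

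Among transcription and chromatin genes of the prepared list, 11 of 17 were members. None of them was called upon jasper RNAi in S2 cells, and 2 were lower upon jil-1 RNAi, the homeobox gene onecut and Mitf, a regulator of lysosomal genes. The gene onecut had 2.14, 1.38, 2.85, 4.24 and 1.62 CPM in control and 0.78, 1.04, 0.73, 0.65 and 1.13 CPM in jil-1 RNAi S2 cells. The groups did not overlap, and the log2 fold-change was -1.57 (SE 0.44, adjusted p = 0.018). The adjusted p was 0.063 without control replicate 8 and 0.060 without jil-1 RNAi replicate 9. Upon jasper RNAi its 4 values were split, at 0.52 and 0.69 CPM in replicates 4 and 8 and at 2.57 and 2.82 CPM in replicates 5 and 9. Mitf moved by -0.21 (adjusted p = 0.049). The well expressed Hcf (host cell factor), MED26 (a Mediator subunit), pan (the TCF factor of Wingless signalling) and lgs (its cofactor) had log2 fold-changes between -0.10 and 0.06 in both S2 contrasts and did not pass the test. Taf3, a TFIID subunit gene outside the list, was lower by -0.17 upon jil-1 RNAi (adjusted p = 0.035).

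All 3 listed genes for RNA silencing and translation were members. eIF4G1 had 1133, 1217, 1159, 1133 and 1049 CPM in control S2 cells. It had 1020, 990, 1062 and 1043 CPM upon jasper RNAi and 1014, 993, 962, 970 and 971 CPM upon jil-1 RNAi. Every jil-1 RNAi value was below every control value, whereas jasper RNAi replicate 8 exceeded 1 control. Its log2 fold-changes were -0.16 (SE 0.05, adjusted p = 0.026) and -0.21 (SE 0.04, adjusted p = 0.0029). Gyf, a translational repressor, was lower upon jil-1 RNAi only at the threshold used (-0.14, adjusted p = 0.020, against -0.04 and adjusted p = 0.62 upon jasper RNAi). The microRNA silencing factor gw had -0.08 and -0.13 and did not pass the test in either.

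Signalling and adhesion genes made up 16 of the 17 listed. Of these, 3 were lower upon jasper RNAi (Asator, mav and CaMKII) and 4 upon jil-1 RNAi (mav, Arf4, Slip1 and CaMKII). For mav, the S2 control values given above stood against 32.3, 37.4, 38.8 and 41.0 CPM upon jasper RNAi and 36.1, 36.4, 29.8, 30.4 and 35.9 CPM upon jil-1 RNAi. All jil-1 RNAi values were below all controls, and 1 jasper RNAi value lay within the range of the controls. The log2 fold-changes were -0.29 (SE 0.09, adjusted p = 0.028) and -0.50 (SE 0.08, adjusted p = 0.00041). The jasper RNAi call was lost without control replicate 8 (adjusted p = 0.092) or 9 (0.062), without jasper RNAi replicate 4 (0.085) or 5 (0.051), and without batch in the model (0.052). Asator, a kinase gene, had 29.0, 26.5, 31.2, 27.6 and 25.4 CPM in control, 17.3, 23.1, 19.97 and 20.3 CPM in jasper RNAi and 31.7, 26.8, 23.7, 22.6 and 23.0 CPM in jil-1 RNAi S2 cells. Its log2 fold-change was -0.51 upon jasper RNAi (SE 0.10, adjusted p = 0.0025) and the direct comparison of jasper with jil-1 RNAi gave -0.36 (adjusted p = 0.047), a call that held in 5 of 13 alternatives and not with the replicate block (adjusted p = 0.068). Arf4, a small GTPase of vesicle traffic, fell by 0.31 on the log2 scale upon jil-1 RNAi (SE 0.07, adjusted p = 0.0047), without overlap between the groups. The receptor tyrosine kinase gene Eph, its ligand Ephrin, PlexA and the cadherin family gene Cals were between -0.17 and 0.04 in both S2 contrasts, none past the threshold.

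Of the synaptic and neuronal genes, 6 of 7 were members, and here 4 fell upon jil-1 RNAi in S2 cells (Gat, Cadps, Ekar and unc-13) and 1 upon jasper RNAi (unc-13). Cadps, a factor of dense-core vesicle release and the last member on the chromosome, had 17.2, 14.97, 14.9, 20.3 and 7.27 CPM in control and 9.59, 8.05, 5.86, 7.04 and 3.17 CPM in jil-1 RNAi S2 cells. The sample of batch 3 was the lowest in each group, so that the ranges overlapped although all 5 pairs fell. The log2 fold-change was -1.15 (SE 0.24, adjusted p = 0.0031). Upon jasper RNAi, replicates 5 and 9 had 15.9 and 15.6 CPM and replicates 4 and 8 had 6.44 and 6.87 CPM, and the test was not passed (-0.57, adjusted p = 0.11). The kainate receptor gene Ekar had 2.54 to 2.99 CPM in control and 0.97 to 1.74 CPM in jil-1 RNAi cells (log2 fold-change -0.94, adjusted p = 0.021, and 0.066 without jil-1 RNAi replicate 9). The GABA transporter gene Gat had 1.03 to 2.07 CPM in control and 0.34 to 0.78 CPM in jil-1 RNAi cells (-1.21, adjusted p = 0.039). DESeq2 gave an adjusted p of 0.051, and from batches 1 and 2 alone edgeR gave 0.11. unc-13 was far more abundant, with 440, 417, 434, 410 and 462 CPM in control, 343, 406, 316 and 388 CPM in jasper RNAi and 383, 362, 289, 303 and 328 CPM in jil-1 RNAi S2 cells. Neither RNAi group overlapped the controls, and the log2 fold-changes were -0.24 (adjusted p = 0.032) and -0.38 (SE 0.07, adjusted p = 0.00097). The call for jasper RNAi was lost in 8 alternatives and held in 12. Among the losses were batches 1 and 2 alone (-0.23, adjusted p = 0.052) and no batch in the model (0.10). It was also lost without control replicate 8 (0.098) and without jasper RNAi replicate 4 (0.11) or 8 (0.095).

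Of the metabolism, transport and DNA repair genes, 9 of 10 were members, with 4 lower upon jasper RNAi, Tdg, PMCA and apolpp among them, and 5 upon jil-1 RNAi, which included these and anne. Tdg gave the clearest separation. Its values were 92.6, 92.4, 106, 100.1 and 99.1 CPM in control, 80.4, 82.7, 87.2 and 89.2 CPM in jasper RNAi and 77.1, 84.9, 83.5, 79.5 and 82.5 CPM in jil-1 RNAi S2 cells. All RNAi values were below all controls, with log2 fold-changes of -0.21 (SE 0.05, adjusted p = 0.0051) and -0.28 (SE 0.04, adjusted p = 0.00028). The gene apolpp had 42.1, 44.7, 37.5, 39.1 and 20.2 CPM in control S2 cells. It had 29.0, 33.7, 22.0 and 31.0 CPM upon jasper RNAi and 34.8, 31.7, 19.3, 21.8 and 12.7 CPM upon jil-1 RNAi. The batch 3 samples were the lowest of their groups. The log2 fold-changes were -0.50 (SE 0.11, adjusted p = 0.0057) and -0.64 (SE 0.11, adjusted p = 0.00056), and they were -0.50 and -0.64 from batches 1 and 2 alone. PMCA, the plasma membrane calcium pump, moved by -0.23 in both contrasts. ATPsynbeta and ND-49, the most abundant of the list per length, were between -0.08 and 0.00 and did not pass the test.

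Both cytoskeletal members, of 3 listed, were lower upon jil-1 RNAi. Ank, or ankyrin, had a log2 fold-change of -0.16 (adjusted p = 0.016). bt had 29.9, 28.1, 26.2, 29.0 and 30.9 CPM in control and 28.4, 26.0, 17.3, 17.1 and 23.7 CPM in jil-1 RNAi S2 cells, where the 2 samples of batch 2 were the lowest. Its log2 fold-change was -0.39 (SE 0.10, adjusted p = 0.0091).

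The largest falls among the 23 members in no list were in genes of uncharacterised or noncoding type. CG33521 had 1.62, 1.84, 1.90, 0.94 and 2.08 CPM in control S2 cells. It had 0.77, 0.51, 0.44 and 0.61 CPM upon jasper RNAi and 0.58, 1.04, 0.40, 0.65 and 0.68 CPM upon jil-1 RNAi. The log2 fold-changes were -1.56 (SE 0.29, adjusted p = 0.0014) and -1.49 (SE 0.26, adjusted p = 0.00076). It overlaps PIP4K, a lipid kinase gene of the opposite strand at 85.0 to 107 CPM in control S2 cells, and with counts taken without regard to strand the jasper RNAi value was -0.21 (adjusted p = 0.53). CG32017 had 19.4, 21.2, 23.4, 19.3 and 34.4 CPM in control, 9.27, 12.2, 5.48 and 12.6 CPM in jasper RNAi and 15.2, 14.5, 8.80, 9.56 and 22.0 CPM in jil-1 RNAi S2 cells. Again the batch 3 samples stood apart, here as the highest of each group. Its log2 fold-changes were -1.10 (SE 0.20, adjusted p = 0.0011) and -0.82 (SE 0.17, adjusted p = 0.0035). The antisense RNA asRNA:CR45124, which overlaps PlexB, had 2.21 to 3.12 CPM in control and 0.79 to 2.13 CPM in jil-1 RNAi cells (-0.99, adjusted p = 0.0062). CG11155 (-1.41, adjusted p = 0.020) had 0.59 to 3.06 CPM in control cells and overlapping groups, and its adjusted p was 0.057 from batches 1 and 2 alone.

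The pseudogene CR43361 responded to jasper RNAi and not detectably to jil-1 RNAi, in both lines. It lies at 905179 to 907924 on the plus strand, within unc-13 on the opposite strand. In S2 cells it had 11.5, 8.98, 13.6, 10.8 and 11.3 CPM in control, 4.25, 6.77, 3.46 and 4.33 CPM in jasper RNAi and 12.01, 10.6, 9.92, 10.1 and 13.4 CPM in jil-1 RNAi cells. In Kc cells it had 6.49, 5.32, 7.50 and 6.84 CPM in control, 3.96, 3.83, 3.77 and 2.78 CPM in jasper RNAi and 8.44, 10.6, 7.45 and 5.31 CPM in jil-1 RNAi cells. Jasper RNAi values were below all others in each line. The log2 fold-changes upon jasper RNAi were -1.28 in S2 (SE 0.18, adjusted p = 0.00011) and -0.86 in Kc cells (SE 0.21, adjusted p = 0.036). Jasper compared directly with jil-1 RNAi gave -1.23 in S2 (adjusted p = 0.00048) and -1.17 in Kc cells (adjusted p = 0.026), the latter lost in 5 of 12 alternatives, with an adjusted p of 0.13 without jil-1 RNAi replicate 2. The Kc call upon jasper RNAi was lost in 7 alternatives and held in 10. Among the losses were fits without control replicate 1, 3 or 4, without jasper RNAi replicate 2 or 4, and without batch. Without jasper RNAi replicate 4, the library with 21.3 CPM of lncRNA:roX2, the value was -0.77 (adjusted p = 0.096). The S2 call held whichever library was left out. The test of a difference between the lines gave -0.43 (adjusted p = 0.44). Reads on a pseudogene can belong to a near-identical copy elsewhere, and the annotation used does not name its parent gene. Whether it shares sequence with the double-stranded RNA against jasper was not tested. Mpv17, for a mitochondrial membrane protein, was the member higher after jasper than after jil-1 RNAi in S2 cells (0.39, SE 0.07, adjusted p = 0.0025), with a fall upon jil-1 RNAi alone (-0.31, adjusted p = 0.0038).

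**Figure D3:**
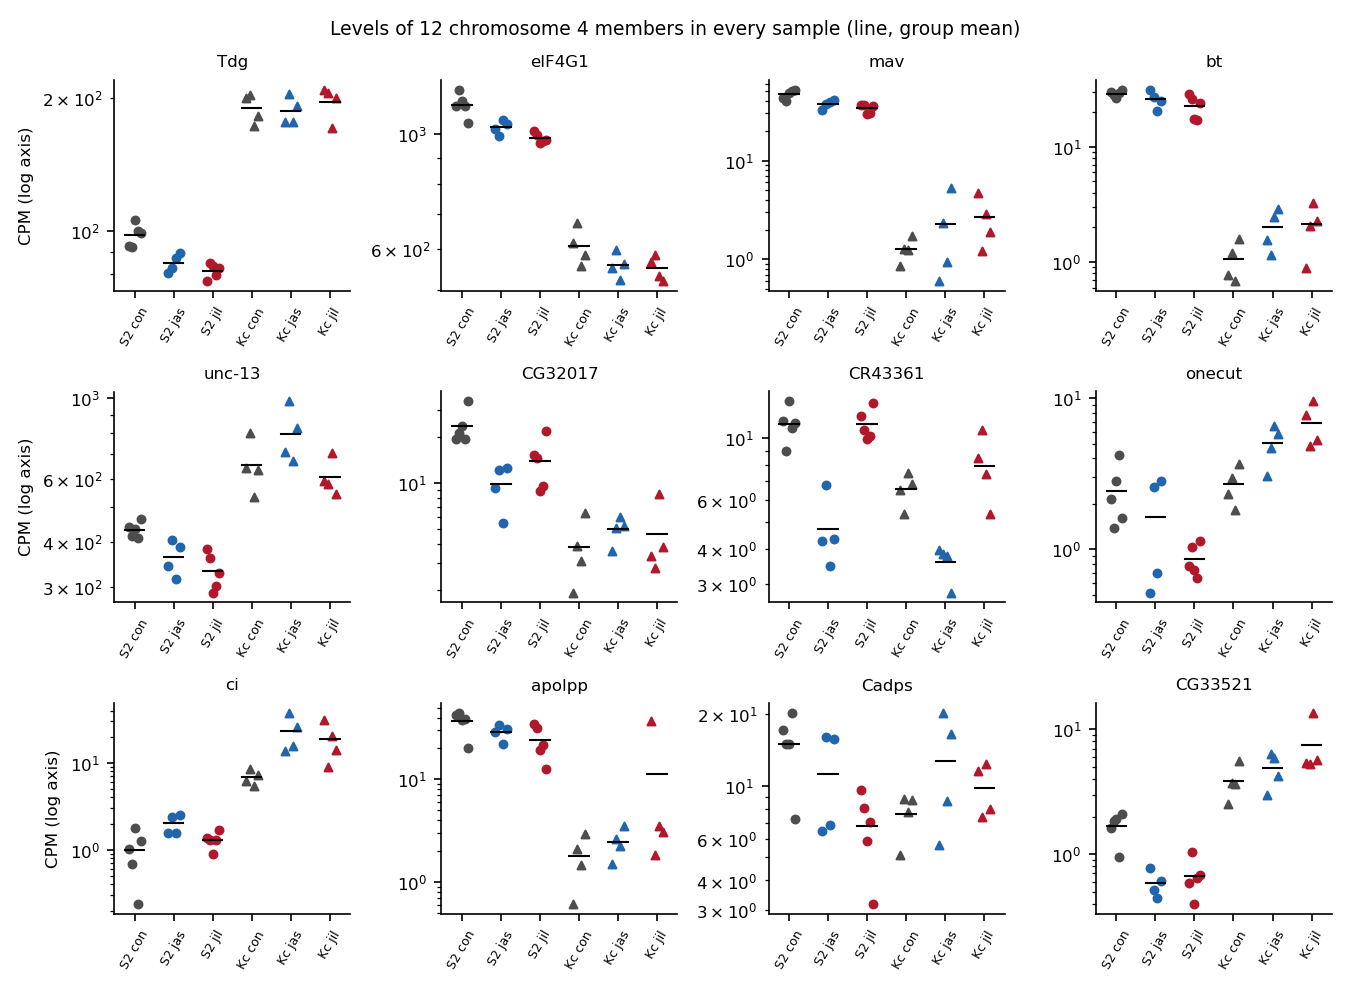
CPM of 12 members on log axes in every S2 sample (circles) and Kc sample (triangles) after control (con), jasper (jas) and jil-1 (jil) RNAi, with group means as lines. Tdg and unc-13 fall in both S2 RNAi groups, CR43361 falls in both jasper RNAi groups, and onecut falls in S2 (0.65 to 1.13 CPM) and rises in Kc cells (4.83 to 9.60 CPM) upon jil-1 RNAi. A single Kc jil-1 RNAi sample holds 36.9 CPM of apolpp.

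In Kc cells few members were called. Upon jasper RNAi 2 were lower, against 2.79% of all tested genes, and 1 was higher, against 1.76%. Upon jil-1 RNAi 0 were lower, against 2.18%, and 3 were higher, against 1.35%. DESeq2 also called 0 lower and 4 higher, and at an unadjusted p under 0.05 edgeR gave 4 lower and 11 higher. Between the RNAi treatments 1 member was lower after jasper RNAi, against 0.339%, and 0 were higher, against 0.249%. DESeq2 gave 3 and 1, and the unadjusted counts were 11 lower and 3 higher. The member median was -0.01 upon jasper and 0.09 upon jil-1 RNAi, and that of 2L, 2R, 3L and 3R genes 0.00 in both. The difference of medians was -0.01 (SD 0.06 over 4 pairs) and 0.09 (SD 0.08), with values of 0.08, -0.02, 0.16 and 0.03 in the 4 jil-1 RNAi pairs. The spread between replicates was larger in Kc (12.4%) than in S2 cells (7.43%), where the spread is edgeR's biological coefficient of variation. The 3 Kc calls upon jil-1 RNAi were lost when replicate 1 or replicate 3 of that RNAi, or control replicate 3, was left out. No member was called upon jasper RNAi without replicate 2 or 4 of that RNAi or without control replicate 1 or 4, and 4 were called without replicate 1 or 3.

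Of the genes called in Kc cells, ci rose upon jasper RNAi. It had 6.14, 8.56, 5.45 and 7.33 CPM in control, 13.6, 37.9, 15.4 and 25.7 CPM in jasper RNAi and 31.1, 8.94, 20.3 and 14.05 CPM in jil-1 RNAi cells. Both RNAi groups were above all controls. The log2 fold-change was 1.73 upon jasper RNAi (SE 0.37, adjusted p = 0.023) and 1.41 upon jil-1 RNAi, where the test was not passed (adjusted p = 0.062). CaMKII, the calcium and calmodulin dependent kinase, was lower upon jasper RNAi, with 225, 301, 173 and 215 CPM in control and 177, 195, 166 and 162 CPM in jasper RNAi cells (-0.38, SE 0.10, adjusted p = 0.045). The groups overlapped, and with TMM factors from 2L, 2R, 3L and 3R the adjusted p was 0.050476. In S2 cells the same gene moved by -0.20 and -0.18 (adjusted p = 0.047 and 0.048). The S2 jasper RNAi call was lost in 8 of 20 alternatives, among them batches 1 and 2 alone (adjusted p = 0.068), no batch in the model (0.11) and the leaving out of control replicate 5, 8, 9 or 11 or jasper RNAi replicate 4 or 8.

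Upon jil-1 RNAi the Kc genes that rose were onecut, PlexB and pan. For onecut, 2.33, 2.96, 1.82 and 3.66 CPM in control stood against 7.77, 4.83, 9.60 and 5.31 CPM (log2 fold-change 1.34, SE 0.28, adjusted p = 0.022). For PlexB, the first member on the chromosome, 71.6, 84.6, 78.5 and 85.0 CPM stood against 103, 91.9, 132 and 102 CPM (0.41, SE 0.10, adjusted p = 0.045). For pan, 134, 150, 138 and 155 CPM stood against 168, 165, 184 and 182 CPM (0.26, SE 0.06, adjusted p = 0.039). None of the 3 had overlapping groups. Of all 193 tested genes called lower in this contrast, the groups did not overlap in 73.6%. The share among genes called higher was not counted. With the replicate number as a block in place of batch, the pairing of samples left pan just outside the threshold (0.26, adjusted p = 0.051).

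The interaction of line and RNAi gave a direct test of unequal responses. For jil-1 RNAi, 8 members responded lower in S2 than in Kc cells, against 3.58% of all tested genes, and 0 higher, against 4.35%. DESeq2 gave 13 and 0, and at an unadjusted p under 0.05 edgeR gave 30 lower and 1 higher. The difference, S2 minus Kc, was negative for 66 of the 70 members with a median of -0.23, and 0.04 for genes of 2L, 2R, 3L and 3R. Members were classed by their mean level over all 26 libraries of both lines. The median was -0.72 for 17 members under 10 CPM and -0.83 for 14 between 10 and 50 CPM. It was -0.15 for 39 members at 50 CPM or more. In these classes 3, 4 and 1 members were called lower. Genes of 2L, 2R, 3L and 3R there had medians of -0.09, 0.08 and 0.03, with 2.91%, 2.81% and 2.80% called lower. Of the 14 members between 10 and 50 CPM, several were low in Kc control cells. There mav, bt, fuss, Sox102F, apolpp, CG32017, asRNA:CR43957 and Cadps had at most 8.83 CPM, and the rest of the 14 at least 20.75 CPM. For jasper RNAi, 2 members were lower in S2, against 3.00%, and 0 higher, against 1.33%, with a median of -0.09. DESeq2 gave 5 and 0, and the unadjusted counts were 15 and 3. The counts varied with single libraries. For jil-1 RNAi they ranged from 4 to 18 with 1 library left out, at 4 without Kc jil-1 RNAi replicate 1 and 18 without S2 jil-1 RNAi replicate 4. For jasper RNAi they ranged from 0 to 8, at 0 without S2 control replicate 8 and 8 without Kc jasper RNAi replicate 1.

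For onecut, -1.57 in S2 and 1.34 in Kc cells differed by -2.90 (SE 0.56, adjusted p = 0.0027), and this held whichever library was left out. For CG33521, -1.49 in S2 stood against 0.99 in Kc cells (adjusted p = 0.098), a difference of -2.48 (SE 0.45, adjusted p = 0.0018). Its Kc values were 2.51, 3.73, 3.63 and 5.62 CPM in control and 5.33, 5.32, 13.6 and 5.69 CPM in jil-1 RNAi cells, and without the replicate at 13.6 CPM the difference was -2.04 (adjusted p = 0.0060). For jasper RNAi, CG33521 differed by -1.92 (adjusted p = 0.023) and CG32017 by -1.50 (adjusted p = 0.022). With counts taken without regard to strand, the jasper difference of CG33521 was -0.31 (adjusted p = 0.70). Without S2 control replicate 8 neither jasper difference was called (adjusted p = 0.094 and 0.059). The largest difference, that of apolpp (-3.08, SE 0.76, adjusted p = 0.016), rested on 1 library. Its Kc values were 36.9, 1.81, 3.54 and 3.04 CPM upon jil-1 RNAi, and replicate 1 at 36.9 CPM is the library with 33.3 CPM of lncRNA:roX1. Other transcripts higher in S2 control cells, lncRNA:roX2, mav, Sox102F, bt and fuss, had 4.66, 4.66, 0.67, 0.89 and 1.33 CPM in this library. The part of foreign RNA in the apolpp value was not tested. Without that library the difference was -1.19 (adjusted p = 0.058). The others were bt (-1.41, adjusted p = 0.0079), asRNA:CR45124 (-1.11, adjusted p = 0.041), Tdg (-0.30, SE 0.08, adjusted p = 0.020), fuss (-1.65, adjusted p = 0.035) and Cadps (-1.54, adjusted p = 0.048). For fuss, whose Kc values were 0.11 to 2.27 CPM, and Cadps the call was lost without Kc jil-1 RNAi replicate 3 (-1.10, adjusted p = 0.31, and -1.37, adjusted p = 0.13). The call of Cadps was lost in 18 of 23 alternatives and that of fuss in 9.

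**Figure D4:**
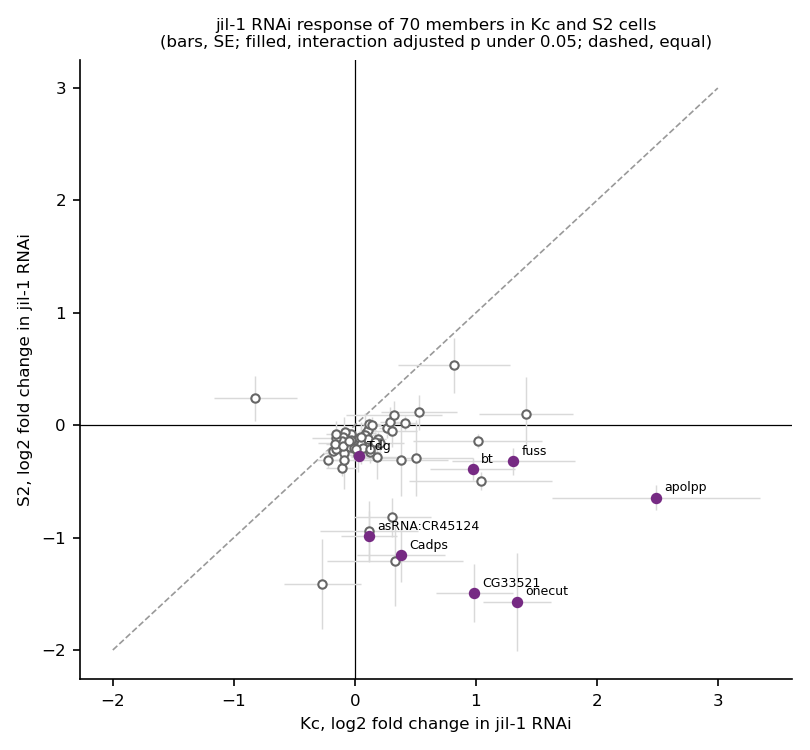
Log2 fold-change upon jil-1 RNAi of the 70 members in Kc (horizontal) and S2 cells (vertical), with SE as bars and a dashed line where the lines respond equally. The 8 filled members differed between the lines at the adjusted threshold, and all lie below the dashed line.

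Position along the chromosome was described next. Members were put in order of start and divided into the first 24, the next 23 and the last 23. Neighbours are members next to each other in this order, and genes that are not members were passed over. How often runs of called neighbours occur on other chromosomes was not counted. Upon jil-1 RNAi in S2 cells, 7, 9 and 11 of these were lower, with medians of -0.14, -0.21 and -0.17. Upon jasper RNAi the counts were 2, 5 and 5 and the medians -0.04, -0.09 and -0.03. Across the 70 genes, which are not independent replicates, log2 fold-change and start site had Pearson's r of -0.22 and Spearman's rho of -0.21 for jil-1 and -0.27 and -0.12 for jasper RNAi in S2 cells. In Kc cells r was -0.08 for jasper and 0.06 for jil-1 RNAi. In S2 cells neighbouring members were hardly alike in their response. Spearman's rho over 69 neighbouring pairs was 0.09 for jil-1 and -0.07 for jasper RNAi. Over 6757 neighbouring pairs of 2L, 2R, 3L and 3R it was 0.10 and 0.08. In Kc cells rho over the 69 pairs was 0.08 for jil-1 and 0.19 for jasper RNAi. Over 7067 neighbouring pairs of 2L, 2R, 3L and 3R it was 0.14 and 0.11. Runs of 3 neighbours lower upon jil-1 RNAi were mav, Gat and Ekar at 623219 to 646556 and Arf4, CG11155 and CG32017 at 1124167 to 1162158.

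**Figure D5:**
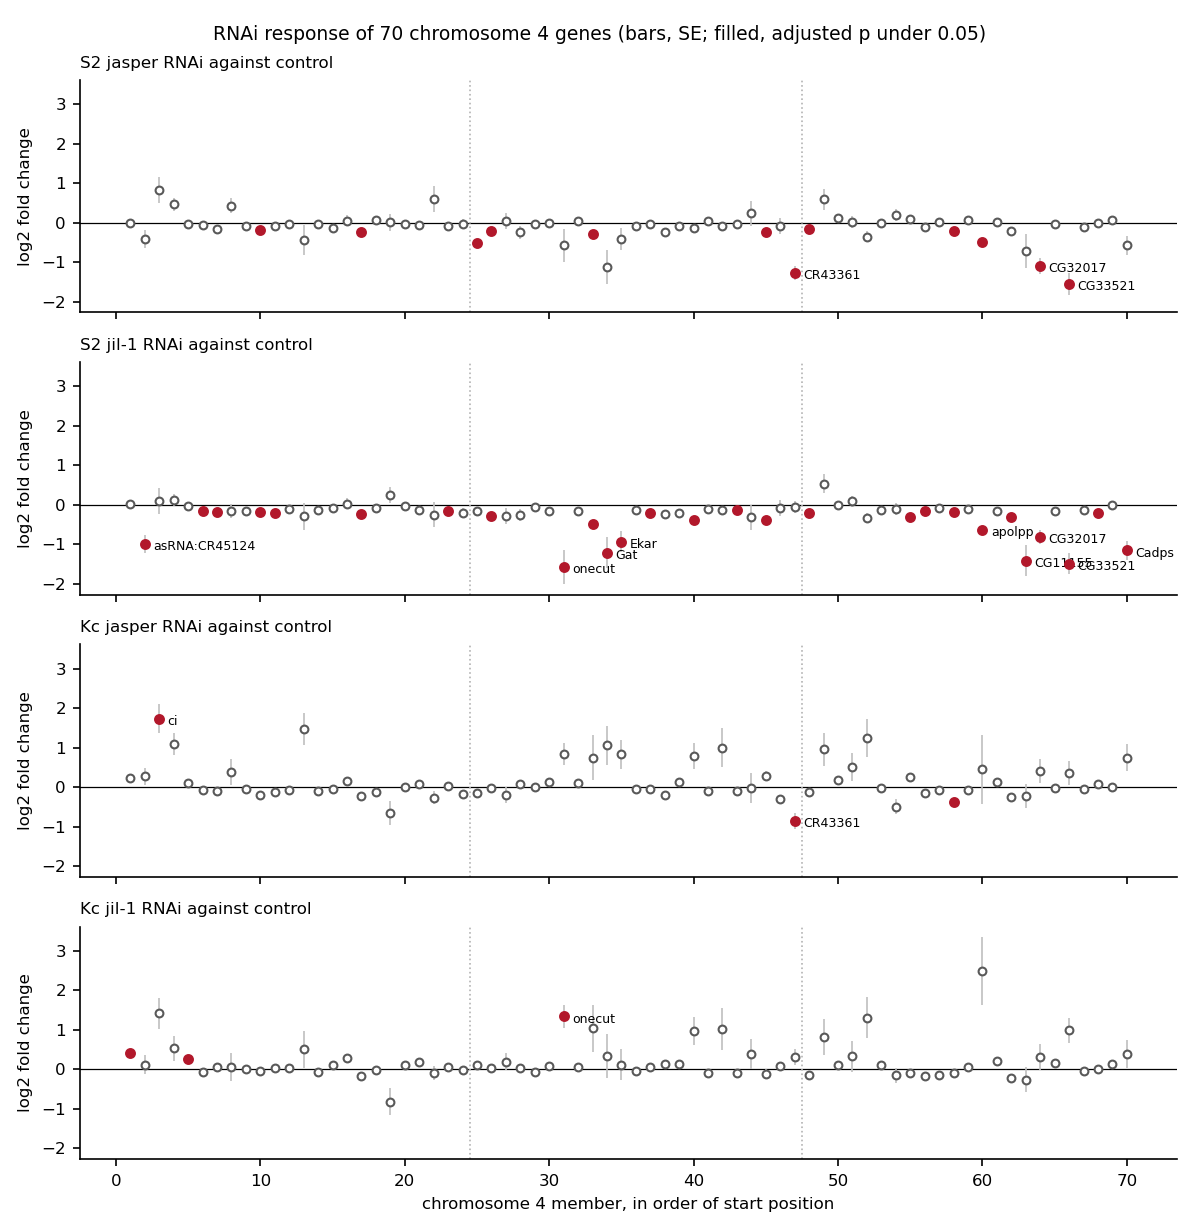
Log2 fold-change (vertical, bars are SE) of the 70 members in order of start along chromosome 4 (horizontal, dotted lines divide the first 24, next 23 and last 23 members) for each RNAi and line. Filled points passed the adjusted threshold: 12 lower in S2 jasper RNAi, 27 lower in S2 jil-1 RNAi, and 3 each in the Kc panels. Called members are found in all 3 stretches of the S2 jil-1 RNAi panel.

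In S2 against Kc control cells, 12 of the first 24 members were lower and 7 higher, 7 and 10 of the next 23, and 4 and 12 of the last 23, with medians of -0.19, -0.14 and 0.22. Pearson's r with start site was 0.21 and Spearman's rho 0.19. A run of 8 neighbours lower in S2 cells reached from asRNA:CR45126 to ND-49, at 459768 to 571554, with Taf3, CG33941, Asator, Tdg, lncRNA:CR43958 and Pur-alpha between them. The call of lncRNA:CR43958, which joins the run, was lost in 7 alternatives, among them DESeq2 (adjusted p = 0.072), and held in 9. This RNA lies within Tdg on the same strand and has the same start site, so that the 2 are not separate neighbours. The gene zfh2, not a member, also lies in this stretch. A run of 7 higher in S2 cells reached from asRNA:CR44029 to fuss, at 879374 to 978489, and held CR43361, eIF4G1, mGluR, 4E-T and asRNA:CR44030. The gene unc-13, within which CR43361 lies on the opposite strand, overlaps this stretch and was lower in S2 cells. In this run the call of asRNA:CR44029 was lost in 9 alternatives and held in 7, and that of mGluR was lost in 2. Shorter runs were asRNA:CR43957, pan, Ank and anne, then Eph, mav and Gat, and apolpp, Cals and Arf4, all higher in S2 cells, and Rnf11, PMCA and Hcf, lower in S2 cells. In these shorter runs calls were lost in 9 alternatives for PMCA, 3 for pan and 1 for Gat. Neighbours had a rho of 0.22, and those of 2L, 2R, 3L and 3R a rho of 0.21.

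Gene length and level were set beside the response, since chromosome 4 genes are long. Upon jil-1 RNAi in S2 cells, 5 of 19 members under 5 kb, 12 of 30 between 5 and 15 kb and 10 of 21 of at least 15 kb were lower, with medians of -0.16, -0.15 and -0.21. Genes of 2L, 2R, 3L and 3R in the same classes had medians of 0.04, -0.03 and -0.04, and 8.13%, 14.1% and 18.9% were lower. Upon jasper RNAi the counts of lower members were 2, 2 and 8, with medians of -0.04, -0.05 and -0.20, against 8.63%, 12.1% and 13.9% of the genes elsewhere. Level classes were set by the mean over all 26 libraries of both lines. The jil-1 RNAi medians were -0.28 for 17 members under 10 CPM and -0.29 for 14 between 10 and 50 CPM. For 39 members at 50 CPM or more the median was -0.15, and in turn 6, 6 and 15 members were lower. Genes of 2L, 2R, 3L and 3R in these classes had medians of -0.06, 0.08 and 0.00, and 9.04%, 8.67% and 11.8% were lower.

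Genes for factors that act on chromosome 4 but are encoded elsewhere did not pass the test in either RNAi contrast of either line. Pof had 27.2 ± 1.99 CPM in S2 control (SD, n = 5), 27.5 ± 1.96 in jasper RNAi (SD, n = 4) and 27.9 ± 1.02 in jil-1 RNAi cells (SD, n = 5), with log2 fold-changes of 0.04 in both. In Kc cells it had 19.6 ± 2.31 CPM in control cells (SD, n = 4) and changes of -0.11 and -0.07. It was higher in S2 than in Kc control cells by 0.47 (adjusted p = 0.0013), as were the gene for HP1a by 0.42 and Su(var)3-7 by 0.42. The H3K9 methyltransferase gene egg had log2 fold-changes of 0.12 and 0.10 in S2 cells (adjusted p = 0.084 and 0.11) and of 0.17 and -0.01 in Kc cells (adjusted p = 0.10 and 0.96). Its cofactor gene wde and the methyltransferase genes G9a and Su(var)3-9 had log2 fold-changes between -0.21 and 0.13 in the 4 RNAi contrasts, and none passed the test. The genes for HP1a and Su(var)3-7 lay between -0.11 and 0.11. Upon jasper RNAi in S2 cells G9a (0.13, adjusted p = 0.052) and Su(var)3-7 (0.11, adjusted p = 0.077) stood just outside the threshold. Between the control cells wde was also higher in S2, by 0.32 (adjusted p = 0.0092), and egg, G9a and Su(var)3-9 did not pass edgeR's test.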

How the data were processed

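Libraries were strand-specific, made after removal of rRNA, and read from both ends. Per the labels, the authors aligned reads with STAR 2.6.0 to BDGP6 (the notes also name RSEM 1.3.0), kept unique alignments and deposited raw counts per gene, unnormalized, for the gene's strand, the opposite strand and both. Counts on the gene's strand were used. Of 17489 genes, 17215 were found in the Ensembl release 115 annotation, which gave coordinates, and 274 were not.

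Genes with more than 0 reads in every sample of a line (8465 in S2, 8847 in Kc cells), or in all 26 samples (7909) for the comparison of lines and the interactions, were tested with edgeR 4.0.16 in R 4.3.3 (TMM, quasi-likelihood, 1 fit per line with all RNAi groups, batch as block, Benjamini-Hochberg, threshold 0.05). The SE was the log2 fold-change over the square root of F. The test was checked on simulated data. Fits across lines had batch within line; the S2 and Kc control comparison had none. Medians over members carry no test.

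Same-numbered samples were compared as possible pairs. Deviations from group means correlated between 0.23 and 0.75 in every pair, and between -0.18 and 0.27 once batch means were removed, so that the pairing lies largely in the batch. Samples of a group differed beyond counting noise (chi-square per degree of freedom 3.48 or more), so none was counted as a duplicate.

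The members and gene lists were chosen with earlier results of these data known. Members were named by rule: up to 10 per RNAi contrast by size of change, those changed in the same direction in every pair and at 1 CPM or more; up to 6 per line; up to 5 per interaction; the 3 highest per length; up to 4 per list; chromosome ends and runs of 3 or more neighbours. Ephrin, Slip1, Mpv17, PIP4K and Mitf were chosen after their values were seen. One item is not reported here. Alternatives were DESeq2 1.42.0, other scalings and filters, unstranded counts, other blocks and each sample left out. Figures used matplotlib 3.10.9.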

Additional observations from a re-analysis of the deposited data

Results flagged for a closer look

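In 11 of 288 groups of 4 or 5 samples, 1 sample stood far from the others, and chance flags about 1 in 20 groups. In S2 cells these were CG32017 in control replicate 11 (34.4 CPM, batch 3), MED26 and anne in jil-1 RNAi replicate 4 (192 and 465 CPM) and lncRNA:CR43958 in jil-1 RNAi replicate 8 (1.64 CPM). In Kc cells they were Gat in control replicate 3 (0.795 CPM), CR43361 and asRNA:CR44030 in jasper RNAi replicate 4 (2.78 and 1.09 CPM), CG33521 and asRNA:CR43957 in jil-1 RNAi replicate 3 (13.6 and 8.59 CPM), apolpp in jil-1 RNAi replicate 1 (36.9 CPM) and the summed level of all members in jil-1 RNAi replicate 4 (8570 CPM). The responses of S2 and Kc cells differed by edgeR's interaction test for 10 pairs of gene and RNAi. For jasper RNAi the log2 differences, S2 minus Kc, were -1.50 for CG32017 and -1.92 for CG33521. For jil-1 RNAi they were -3.08 for apolpp, -2.90 for onecut, -2.48 for CG33521, -1.65 for fuss, -1.54 for Cadps, -1.41 for bt, -1.11 for asRNA:CR45124 and -0.30 for Tdg. No cause of these differences was tested.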

How the results depend on the processing

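Counts of called members varied with the batch term, the filter and single libraries. Without the batch term 5 members were called for jasper and 9 for jil-1 RNAi in S2 cells, 0 in each of the 3 Kc contrasts, and 0 and 2 in the jasper and jil-1 interactions. Without a filter on low counts 19 were called for jasper RNAi in S2 cells and 6 and 5 for jasper and jil-1 RNAi in Kc cells. DESeq2 called 6 for jasper RNAi in Kc cells, 4 between the Kc RNAi treatments, and 5 and 13 in the interactions. Counts without regard to strand gave 1 for each Kc RNAi, and the Kc control and jasper RNAi samples alone gave 1. With means for medians, the Kc differences from other autosomes were 0.11 for jasper and 0.18 for jil-1 RNAi. CG33521 turned from lower to 0.16 in S2 against Kc control cells without regard to strand.

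With each replicate left out in turn, calls ranged from 8 to 14 for jasper and 16 to 31 for jil-1 RNAi in S2 cells, and from 2 to 8 between them. They ranged from 0 to 4, 0 to 3 and 0 to 2 in Kc cells, from 48 to 52 between the lines, and from 0 to 8 and 4 to 18 in the interactions. The highest counts of S2 jil-1 RNAi, of S2 jasper against jil-1 RNAi and of the jil-1 interaction came without S2 jil-1 RNAi replicate 4. The median difference for S2 jil-1 RNAi stayed between -0.24 and -0.15, and for S2 jasper RNAi between -0.13 and -0.07. With the replicate block the counts were 14 and 27 in S2 and 3 and 2 in Kc cells, and 3 and 9 in the interactions, and among named members tested against control or between lines only the call of pan changed. Between the RNAi treatments they were 2 in S2, where the call of Asator was lost, and 1 in Kc cells. Of the alternatives for single named members, 1093 kept the call and direction, 171 lost the call and 1 reversed. The search for promoter motifs was not run. Members with few reads (22 had under 10 in a library) limit what the depth can show. The causes of these changes were not tested.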

Other observations

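Some chromosome 4 genes outside the 70 members were well expressed in a single line. The homeobox gene toy, a Pax6 homologue, had 43.4 to 78.3 CPM over the 12 Kc libraries, and zfh2, a zinc finger homeodomain gene, 22.5 to 38.4 CPM. In the 14 S2 libraries CG31999 had 74.6 to 112 CPM, CG1674 had 43.7 to 102 CPM and yellow-h 5.80 to 16.96 CPM. Each lacked reads in at least 1 library of the other line. The ribosomal protein gene RpS3A, left out of the members, had 2848 to 3387 CPM in S2 and 1719 to 2371 CPM in Kc libraries.

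Upon jasper RNAi in Kc cells all 6 synaptic and neuronal members had positive log2 fold-changes, with a median of 0.89, and none passed edgeR's test. The values of Cadps were 5.63, 20.3, 8.61 and 16.4 CPM, and those of Ekar 2.82, 12.3, 3.30 and 7.13 CPM, in replicates 1 to 4, so that replicates 2 and 4 were the highest for both genes. Control values were 5.10 to 8.83 and 2.69 to 5.02 CPM. Of the 6 genes, all but unc-13 had at most 8.83 CPM in Kc control cells. Over all members, the median in this contrast was 0.36 for 17 under 10 CPM in mean and 0.43 for 14 between 10 and 50 CPM. It was -0.04 for 39 members at 50 CPM or more. The mean was taken over all 26 libraries of both lines. Of the 14 members, mav, bt, fuss, Sox102F, apolpp, CG32017, asRNA:CR43957 and Cadps had at most 8.83 CPM in Kc control cells. The rest of the 14 had at least 20.75 CPM there. Genes of 2L, 2R, 3L and 3R had medians of 0.13, 0.01 and -0.03 in these classes.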
